A study of Mus musculus with 16 samples.

Results

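The pyruvate dehydrogenase (PDH) complex and its regulators were followed in gastrocnemius, the large calf muscle of the mouse. The members were 10 genes chosen by name, and every array probe that carried one of these gene names was taken, which gave 17 of the 55681 probes and 10 of the 34650 gene names on the array. Young male C57BL6 littermates of 8 to 16 weeks were used. WT mice carried 2 copies of Eif6 (Eif6+/+). Het mice carried 1 functional copy in every cell (Eif6+/-), so a difference cannot be assigned to the muscle fibre, and no drug or other treatment was given to either genotype. Eif6 encodes eukaryotic initiation factor 6, which binds the large ribosomal subunit and keeps it apart from the small one. From 3 mice of each genotype, RNA of whole muscle and RNA from polysomes (pooled sucrose gradient fractions with several ribosomes per transcript) were hybridised, 3 arrays per group. Monosome RNA (transcripts with a single ribosome) was hybridised from WT mice 1 and 2 and Het mice 1 and 3. The 6 groups held 16 arrays in all.

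The PDH complex sits in the mitochondrial matrix and turns pyruvate, the end product of glycolysis, into acetyl-CoA for the citric acid cycle. Its E1 component (Pdha1, Pdhb) decarboxylates pyruvate, the E2 core (Dlat) passes the acetyl group to coenzyme A on a lipoyl arm, and E3 (Dld), held in place by the E3-binding protein (Pdhx), reoxidises that arm. PDH kinases (Pdk1, Pdk2, Pdk3, Pdk4) phosphorylate E1α and switch the complex off, and PDH phosphatases (Pdp1) switch it on. In skeletal muscle Pdk2 and Pdk4 are the main kinases, and Pdk4 is known for its rise on fasting.

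Of the 17 probes, 14 from 9 genes could be tested, having a signal well above background throughout 1 group or more, as had 20244 probes of the whole array. The other 3 were Pdk3 (well above background on 2 of 16 arrays), 1 of 3 Pdhb probes (4 of 16) and 1 of 2 Pdhx probes (0 of 16), and they were not tested. The Pdk3 probe lay between 1.49 and 3.97 on the log2 scale, near the floor, where the other Pdhx probe sat throughout at 1.49 to 1.85. Where a gene had several tested probes, the one of highest mean signal stands for it, and values of other probes are given where these are named.

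Probe sequences show which part of a transcript each value reads. On the mm9 genome, Pdha1 was read by 1 probe at chrX:156560665-156560724, and its first 30 bases are shown because the gene had no other probe. The tested Pdhb probes, A_55_P1953972 (chr14:8998548-8998607) and A_55_P1969776 (chr14:8998505-8998562), share 15 bases, in capitals, and so are not separate measurements. The tested Pdhx probe (chr2:102861330-102861389) holds the polyadenylation signal AATAAA, in capitals, as did 3 of the 17 probes and 10.06% of all probes on the array (searched on the probe strand only). The Dld probe A_55_P2120807 (chr12:32018291-32018350) has 1 reading frame without a stop codon and starts 310 bases upstream in the transcript of the other, A_51_P184284 (chr12:32016889-32016948). All are written 5′ to 3′ as the probes read. Exon and untranslated-region annotation for mm9 was not used here.
Pdha1 A_52_P581435: gtgtagaggtgtggatctttaaacaagagt
Pdhb A_55_P1953972: ctaagaagtatattaTCTACATTTGCTGTT
Pdhb A_55_P1969776: TCTACATTTGCTGTTtaattgttttgataa
Pdhx A_55_P2115176: ggaatctaatgaAATAAAttctcttagcat
Dld A_55_P2120807: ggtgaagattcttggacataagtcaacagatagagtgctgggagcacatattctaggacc
Dld A_51_P184284: aattatgaaacttctgggagatctttagta

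Eif6 checked the labels. On its brighter probe the level was 8.97 to 9.66 in WT and 8.21 to 8.40 in Het whole muscle, 9.95 to 10.71 and 8.87 to 9.12 in polysomes, and 9.36 and 10.16 against 7.82 and 8.06 in monosomes. The genotypes did not overlap in any of the 3 kinds of RNA, and the adjusted p of limma, a linear model fitted to all tested probes, was 0.61 in whole muscle, 0.52 in polysomes and 0.045 in monosomes. On the dimmer Eif6 probe the limma adjusted p was 0.72, 0.59 and 0.072 in the same order. A pair of arrays of WT mouse 2 stood apart, those of its polysomes and monosomes. Among 219 pairs of probes at least 500 bases apart in one transcript, the median log2 difference of the 5′ minus the 3′ probe was -0.12 and 0.33 on them and -1.62 to -1.15 on the other 14. The monosome array was also the dimmest, with 23.5% of spots well above background against 24.0% to 45.9% elsewhere. The PDH values and the medians of the gene lists are therefore given with and without WT mouse 2, and levels of marker genes with all mice. All 8 fibre markers (such as Acta1 and Ckm) were well above background on every array, and 3 of them had a polysome to whole-muscle ratio over 1 log2 unit higher in Het mice without overlap, Atp2a1 by 2.79, Ckm by 1.64 and Acta1 by 1.21. By that rule 6.94% of all tested probes were higher and 6.81% lower. Myh4 (-0.27) and Tnni2 (-0.21) had lower ratios in Het mice. Atp2a1 and Acta1 were also lower in Het whole muscle (-1.17 and -0.50) and higher in Het polysomes (1.62 and 0.70) without overlap, and the median ratio difference of the 8 was 0.31, or 0.23 without WT mouse 2. The summed level of 4 blood cell genes was 14.36 to 15.42 in WT polysomes and 13.34 to 13.79 in Het polysomes, and that of 4 fibroblast genes was 15.01 to 15.12 and 14.40 to 14.66. In both lists all 4 genes were well above background in the polysomes of both genotypes. Of 6 listed immune genes 5 were tested, and their summed level in whole muscle was 9.49 to 11.81 in WT and 9.44 to 9.84 in Het mice, with Lyz2 (-2.62) and Mpeg1 (-2.26) lower in Het without overlap. In whole muscle all 5 were well above background on every WT array, but only 3 on every Het array. In bulk RNA fewer cells of a type and less RNA per cell cannot be told apart. The part of these arrays and cells in the PDH values below was not tested.

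The first question was how much of each PDH transcript lay on polysomes in the same mouse. Since the complex was selected with these ratios known, they are described without a test. The log2 ratio of polysome to whole-muscle signal was higher on average in Het than in WT mice for all 9 genes measured. The median of the 9 differences was 0.73, against 0.16 over all tested probes, 59.3% of which were higher in Het. Without WT mouse 2 the median was 0.28, 8 of 9 genes were higher, and the median of all probes was 0.08.

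Pdha1, the catalytic E1α subunit that the kinases phosphorylate, had the widest gap. Its ratio was -1.73, -3.05 and -0.57 in the 3 WT mice and 0.27, 0.94 and 0.92 in the 3 Het mice. All 3 WT mice were thus below 0 and all 3 Het mice above it, where 0 is set by the normalization of the arrays to each other and not by the amount of transcript on polysomes. The difference was 2.49 ± 0.62 (SE, n = 3 and 3), a 5.62-fold change, and it was 1.86 without WT mouse 2. It stayed above 0 in all alternatives that kept the probe, the lowest value being 0.80 with array brightness as a term.

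Among the other catalytic genes, the Dld ratio, for the E3 component, was -0.88, -1.96 and -0.62 in WT and -0.33, 0.04 and -0.11 in Het mice on the downstream probe, and -2.03, -2.66 and -1.47 against -1.20, -0.41 and -0.50 on the upstream one. Neither probe's groups overlapped, and the differences were 1.02 ± 0.41 and 1.35 ± 0.41 (SE), or 0.62 and 1.05 without WT mouse 2. With normexp background correction they were 0.87 and 0.73, so the order of the probes turned. Pdhb, the E1β subunit, had ratios of 0.44, -0.92 and 0.36 in WT and 0.69, 0.99 and 0.86 in Het mice, again without overlap. Its difference of 0.89 ± 0.43 (SE) went down to 0.45 without WT mouse 2. Dlat and Pdhx, the E2 core and the protein that anchors E3 to it, overlapped between genotypes. Their differences were 0.69 and 0.90, and WT mouse 2 alone was far from the rest, at -1.61 for Dlat and -1.91 for Pdhx. Without it the differences were 0.19 and 0.28.

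**Figure D1:**
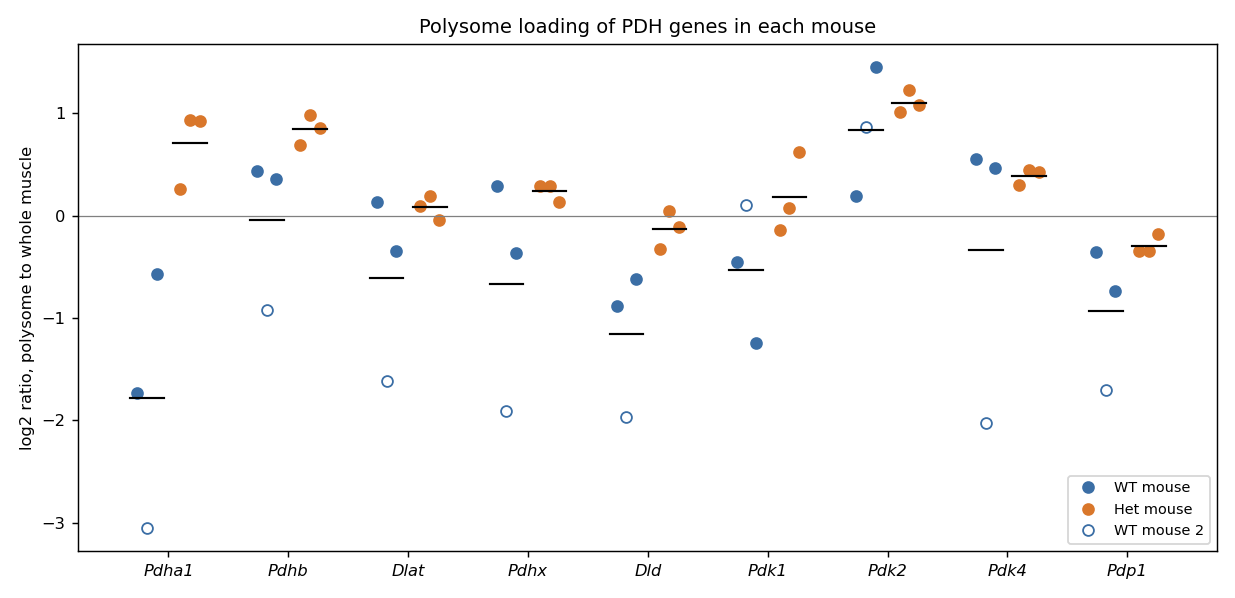
Log2 ratio of polysome to whole-muscle signal (y axis) for the 9 measured PDH genes (x axis), 1 point per mouse and a line at the mean of 3 mice. WT mouse 2 is drawn open, and Pdha1 is below 0 in the 3 WT mice and above 0 in the 3 Het mice.

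Among the kinases, Pdk2 had ratios of 0.19, 0.87 and 1.45 in WT and 1.01, 1.23 and 1.08 in Het mice, a difference of 0.27 ± 0.38 (SE), with the Het mice inside the WT range. Pdk4 had 0.55, -2.03 and 0.47 in WT and 0.30, 0.45 and 0.43 in Het mice. The Pdk4 difference of 0.73 rested on WT mouse 2 and was -0.12 without it. Pdk1, a kinase induced by hypoxia-inducible factor, overlapped too, with a difference of 0.71 that was 1.03 without that mouse. The Pdk1 difference was 0.32 with normexp background correction and 0.42 in the authors' values. Its probe was well above background on 2 of 3 Het whole-muscle arrays. The 3 probes of the phosphatase gene Pdp1 gave differences of 0.64, 0.69 and 0.80, of which only the first had groups apart, the nearest mice standing at -0.355 in WT and -0.349 in Het. Without WT mouse 2 they were 0.25, 1.12 and 0.35.

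The genotypes did not overlap in the ratio for 4 of 9 genes (Pdha1, Pdhb, Dld and Pdp1), all higher in Het mice, as were 13.4% of all tested probes, with 11.9% lower. Past a log2 difference of 1 with no overlap, Pdha1 and Dld were higher in Het mice, 2 of 9 genes, while 6.94% of all tested probes were higher and 6.81% lower by the same rule. Since these ratios chose the complex, nothing is read from the counts. Array brightness moved with genotype in opposite ways in both kinds of RNA. The 75th percentile of the signal was 42.3 to 150.1 in WT and 13.5 to 33.0 in Het whole muscle, and 24.1 to 66.1 and 63.1 to 106 in polysomes. With brightness as a term the median difference of the 9 genes was 0.41. No mouse had both arrays on 1 slide, and unpaired values within a slide were 1.28 on slide 1 and 0.13 on slide 2, where Pdha1 stood at 2.75 and 1.40.

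Polysome and whole-muscle levels were also set apart, as a description for the same reason. In polysomes all 9 genes had a higher mean in Het mice, with a median difference of 0.96 against 0.04 over all probes. Without WT mouse 2 the median was 0.52 and 8 of 9 genes were higher, Pdk4 going from 0.74 to -0.36. Groups did not overlap for 6 genes (Pdha1, Pdhb, Dlat, Pdhx, Dld and Pdp1), which are the 5 catalytic and structural genes and the phosphatase, and they overlapped for Pdk1, Pdk2 and Pdk4. For Pdp1 this depended on the probe, since the groups of its upstream probe, A_55_P2162394, did overlap. Of all tested probes 12.9% were higher in Het polysomes without overlap and 8.74% lower. Past a difference of 1 without overlap were 4 genes, beside 3.82% of all probes higher and 1.66% lower.

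Pdha1 in polysomes was 8.41, 6.86 and 9.27 in WT and 9.90, 10.33 and 10.24 in Het mice, a difference of 1.98 ± 0.69 (SE). In whole muscle it was lower in Het mice, at 10.13, 9.91 and 9.84 in WT and 9.63, 9.39 and 9.31 in Het mice, a difference of -0.51 ± 0.69 with no overlap. The sign of that difference turned, to 1.05, with array brightness as a term. The SE, shared by the 6 groups, is wider than the spread inside whole muscle, where SDs were 0.16 and 0.17. Pdha1 was the only 1 of the 9 genes whose whole-muscle groups did not overlap, as was the case for 8.32% of all tested probes lower in Het and 5.28% higher.

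Pdhb in polysomes was 11.58, 10.26 and 11.70 in WT and 12.16, 12.26 and 11.99 in Het mice, and its difference was 0.96 ± 0.45 (SE). Dlat was 8.64, 7.17 and 8.59 against 9.26, 9.29 and 8.86, a difference of 1.01. Pdhx was 8.11, 6.33 and 8.10 against 8.68, 8.73 and 8.45, a difference of 1.11. In these 3 genes WT mouse 2 was the lowest array, and without it the differences were 0.50, 0.52 and 0.52. Dld was 8.58, 7.69 and 8.78 in WT and 9.51, 9.71 and 9.39 in Het polysomes, a difference of 1.19 that was 0.86 without WT mouse 2. Its upstream probe differed by 1.49, or 1.26 without that mouse.

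For the regulators, Pdp1 was 8.17, 7.45 and 8.32 in WT and 8.95, 8.94 and 8.75 in Het polysomes, a difference of 0.90 that was 0.64 without WT mouse 2. The Pdp1 probe A_55_P2033055 differed by 1.04 without overlap, and A_55_P2162394 by 0.67 with overlap. Without WT mouse 2 these were 0.62 and 1.15. Pdk2 was 11.48, 12.23 and 11.97 against 12.16, 12.04 and 12.14. WT mouse 2 was the highest of the WT polysome arrays for Pdk2 and Pdk1 and the lowest for the other 7 genes. Pdk4 was 12.27, 8.38 and 11.06 in WT and 11.81, 11.51 and 10.59 in Het polysomes, which made it the most scattered of the genes in WT polysomes (SD 1.99). Pdk1 was dim, between 4.92 and 5.87 in all 6 polysome samples.

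Whole-muscle levels of the other 8 genes overlapped between genotypes. The median difference of the 9 was 0.07 against -0.03 over all probes, with 6 genes higher and 3 lower. None passed a difference of 1 without overlap, beside 1.36% of all probes higher and 2.94% lower. Pdk4 covered 10.40 to 11.72 in WT and 10.17 to 11.51 in Het muscle, a difference of 0.01 ± 1.12 (SE). Dlat, at 8.51 to 8.93 and 8.90 to 9.16, and Pdp1, at 8.52 to 9.15 and 8.94 to 9.30, had differences of 0.31 and 0.26. With array brightness as a term, the median of the 9 whole-muscle differences was 1.05.

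**Figure D2:**
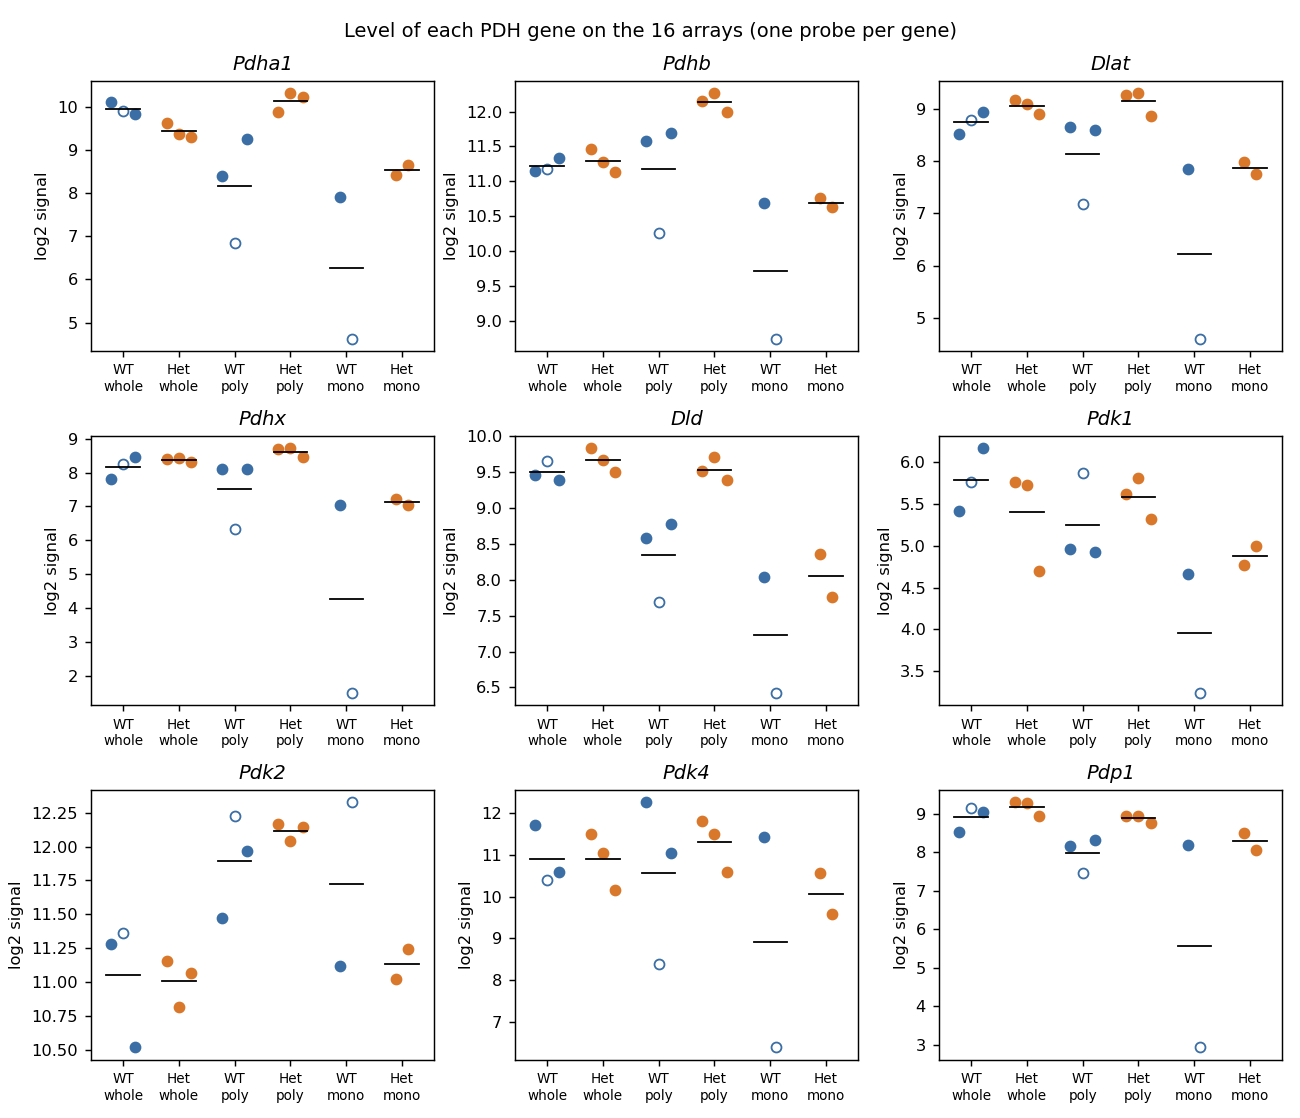
Log2 quantile-normalised signal (y axis) of 9 PDH genes, 1 panel per gene, on the 16 arrays of the 6 groups (x axis), with a line at each group mean. Open points are WT mouse 2, which is the lowest of its group in polysomes for 7 genes and in monosomes for 8, and the highest in both for Pdk2.

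Monosome RNA was outside the values that chose the complex, so genotypes were tested in it, with 2 arrays each. No PDH probe passed an adjusted p of 0.05 (limma, Benjamini-Hochberg over 20244 probes). By the same test 0.395% of all probes were higher in Het and 0.104% lower. At an unadjusted p under 0.05 there were 5 of 14 PDH probes and 6681 of all. The lowest adjusted p was 0.0897, for the upstream Dld probe, whose difference was 1.53 (95% interval 0.55 to 2.50).

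Pdha1 in monosomes was 7.92 and 4.63 in WT and 8.42 and 8.65 in Het mice, a difference of 2.26 (95% interval 0.43 to 4.09, limma adjusted p = 0.11). The WT array at 4.63 was not well above background there. Pdhx was 7.03 and 1.50 in WT and 7.21 and 7.06 in Het mice, so that 1 WT array sat at the floor and the other just below the Het arrays. Pdp1 was 8.19 and 2.92 in WT and 8.51 and 8.05 in Het mice, with the first WT array between the Het arrays and the second not well above background. Its upstream probe was 6.23 and 5.34 in WT and 6.47 and 6.55 in Het mice, a difference of 0.73 without overlap. Pdk2 was 11.11 and 12.33 in WT and 11.02 and 11.24 in Het monosomes, a difference of -0.59 (95% interval -1.48 to 0.30) that was 0.02 without WT mouse 2.

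The WT monosome arrays lay far apart, with mouse 2 the lower for 8 of 9 genes. The median of the 9 differences was 1.17 with it and 0.02 without it, against 0.099 and -0.015 over all tested probes. Without WT mouse 1, WT monosomes were mouse 2 alone and more probes passed, which is not read as a result about the PDH genes. Without WT mouse 2 Pdk4 changed sign too, from 1.17 to -1.35. Pdha1 went from 2.26 to 0.61 (adjusted p = 0.48) and the upstream Dld probe to 0.72 (adjusted p = 0.33). In that fit WT monosomes were 1 array, assumed to vary like the other groups.

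**Figure D3:**
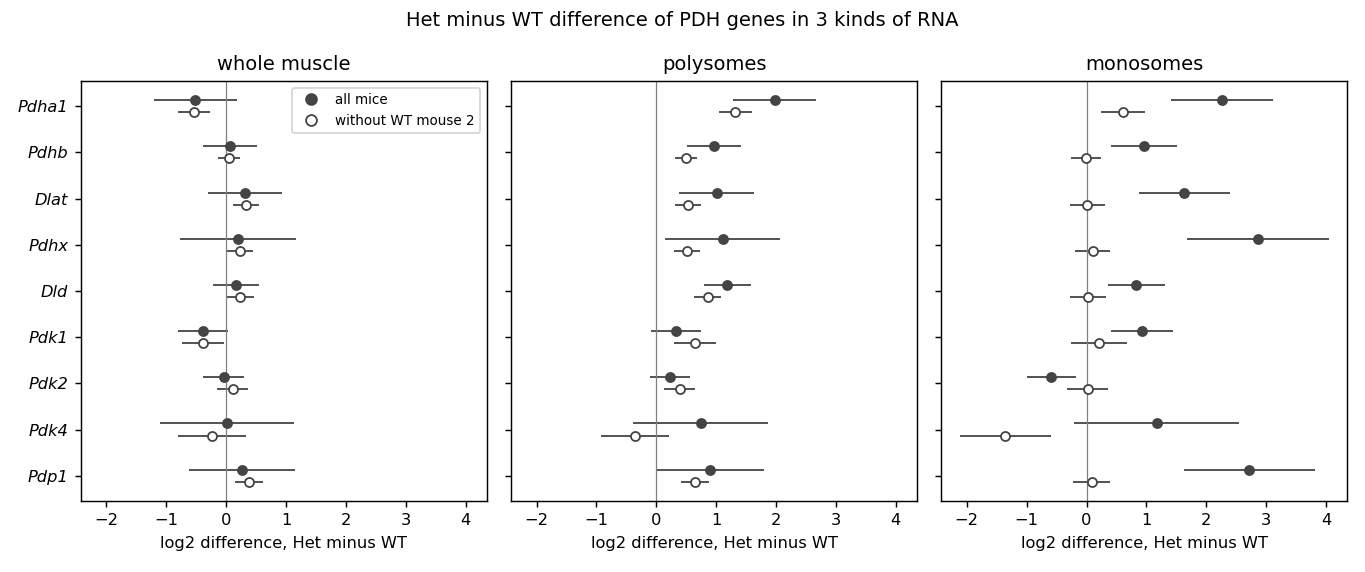
Log2 difference, Het minus WT (x axis), of 9 PDH genes (y axis) in whole muscle, polysomes and monosomes, with the SE of the fit as bars. Filled points are all mice and open points leave out WT mouse 2, which brings the monosome differences to between -0.01 and 0.21 for 7 of 9 genes and leaves Pdha1 polysomes at 1.32.

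The kinds of RNA were then compared over both genotypes. The genotype difference of the ratios, not their mean, stood behind the choice of the complex, but earlier results of the same arrays were known. In the mean of 6 within-mouse ratios of polysome to whole muscle, 1 probe was higher and 2 were lower of 14, a share near that of all probes, of which 13.1% were higher and 11.6% lower. Pdk2 rose by 0.97 ± 0.19 (SE, limma adjusted p = 0.0123), 1.96-fold, and was higher in 6 of 6 mice. Its second probe, A_51_P426276, was at 0.56 (adjusted p = 0.16) and higher in 5 of 6 mice. The upstream Dld probe fell by 1.38 on the log2 scale (adjusted p = 0.0049), lower in 6 of 6 mice, and the upstream Pdp1 probe, A_55_P2162394, fell by 0.76 (adjusted p = 0.040), also in 6 of 6. Pdha1 had a mean of -0.54 (95% interval -1.26 to 0.19) and Pdk4 a mean of 0.03 (95% interval -0.77 to 0.83). Without WT mouse 2 Pdha1 was at -0.22, and the 3 probes still passed and 2 more passed, the brighter Pdhb probe (0.62, adjusted p = 0.020) and Pdk4 (0.45, adjusted p = 0.045). In that fit 14.3% of all probes were higher and 13% lower.

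Against monosomes most PDH probes stood higher in polysomes. In this comparison 9 of 14 probes and 6 of 9 genes rose and none fell, with 16.9% of all probes higher and 9.07% lower. The 6 genes were all 5 catalytic and structural genes and Pdk1. Pdk1 was well above background on only 1 of 2 WT and 1 of 2 Het monosome arrays, and was tested through groups of the other kinds of RNA. Its rise is thus partly set by the filter. The brighter Pdhb probe rose by 1.45 ± 0.36 (SE, adjusted p = 0.0112), Dlat by 1.59 ± 0.49 (adjusted p = 0.032), Pdha1 by 1.76 ± 0.55 (adjusted p = 0.033) and Pdhx by 2.37 ± 0.76 (adjusted p = 0.039). Dld rose on both probes, by 1.30 and 1.87, the second being the upstream probe, well above background on 1 of 2 WT monosome arrays. Pdk2 was at 0.58 (95% interval 0.0011 to 1.15, adjusted p = 0.12) and Pdk4 at 1.45 (95% interval -0.47 to 3.36, adjusted p = 0.22), so neither passed. For Pdp1, only the upstream probe passed, at 1.01 (adjusted p = 0.027).

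Without WT mouse 2, WT monosomes were 1 array, so only differences are given for that fit. Pdk1 was then at 0.49 and the brighter Pdk2 probe at 0.80. Pdhx was at 1.28, Pdha1 at 1.27, Dlat at 1.02, the upstream Pdp1 probe at 0.55 and Pdk4 at 0.73. Of these, Pdhx, Pdha1, Dlat and Pdp1 had 1 of 2 WT monosome arrays not well above background, that of mouse 2, and Pdk1 had 1 of 2 in each genotype. Against 9 probes with all mice, 3 passed without Het mouse 2, 3 without WT mouse 3 and 1 with array brightness as a term. Leaving out Het mouse 1 or Het mouse 3 left 1 Het monosome array, and the count fell there too.

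Monosome against whole muscle gave the reverse order. Here 10 of 14 probes fell, from 7 genes, and none rose, with 14.2% of all probes lower and 10.8% higher. The upstream Dld probe fell by 3.25 on the log2 scale (adjusted p = 5.8e-05), but 1 of the 2 WT monosome arrays was not well above background for it, and the downstream one fell by 1.94 (adjusted p = 0.0015). Pdha1 fell by 2.30 (adjusted p = 0.013), Pdhx fell by 2.58 (adjusted p = 0.031) and the brighter Pdhb probe fell by 1.05 (adjusted p = 0.048). For Pdha1, Pdhx, Dlat, Pdk1 and the Pdp1 probes, 1 of the 2 WT monosome arrays was also not well above background. Pdk2 was at 0.40 (95% interval -0.18 to 0.97) and Pdk4 at -1.42 (95% interval -3.33 to 0.49), and neither passed. Without WT mouse 2, when WT monosomes were 1 array, the upstream Dld probe was at -2.81, Pdha1 at -1.48, Pdhx at -1.18, Pdhb at -0.57 and Pdk4 at -0.28. Against 10 probes with all mice, 4 passed without Het mouse 2 and 4 without WT mouse 3. The count fell too without Het mouse 1 or Het mouse 3, which left 1 Het monosome array.

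**Figure D4:**
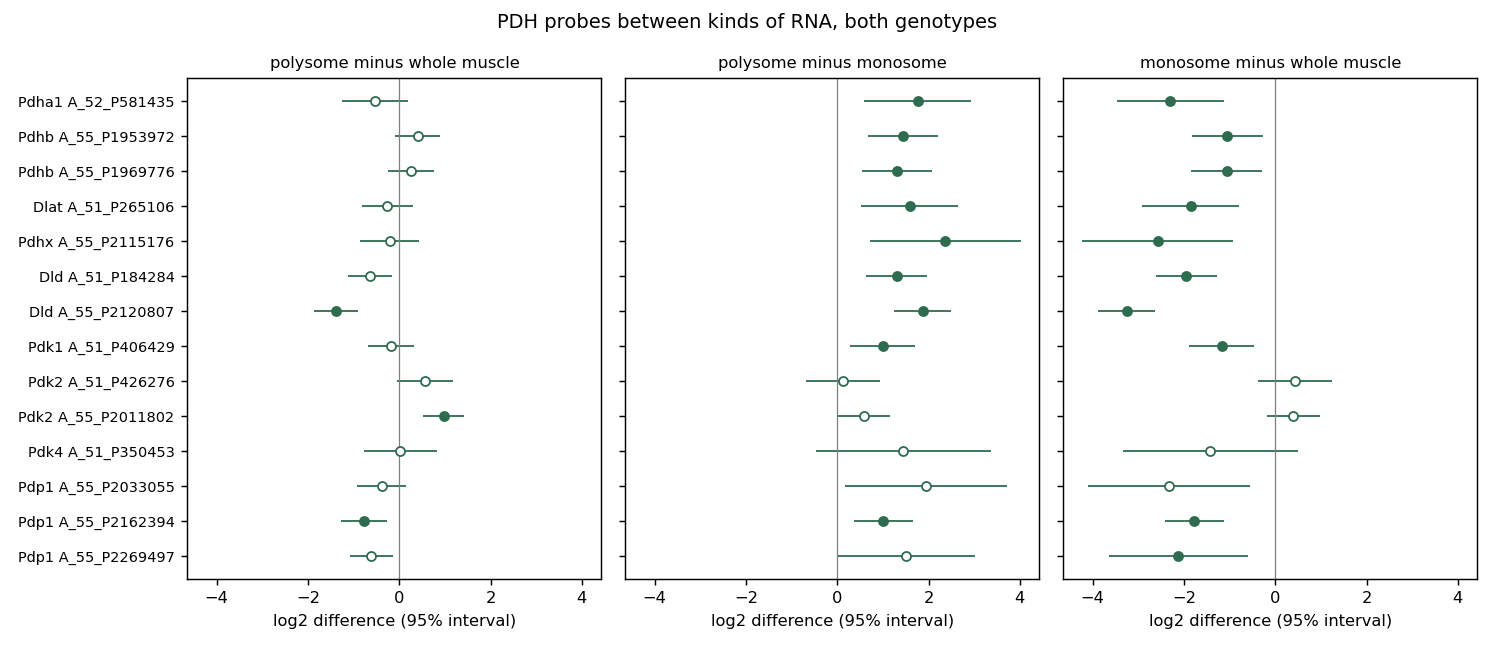
Log2 difference (x axis, bars 95% interval) of the 14 tested PDH probes (y axis) between kinds of RNA over both genotypes. Filled points passed an adjusted p of 0.05; in polysomes against monosomes 9 of 14 are filled and higher, while the Pdk2 and Pdk4 probes are open.

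Probes of one gene did not always move together. The upstream minus the downstream Dld probe was -1.12 to -0.95 on the 6 whole-muscle arrays, -2.12 to -1.51 on the 6 polysome arrays and -2.70 to -1.78 on the 4 monosome arrays. Whole muscle thus did not overlap with either ribosomal fraction. The outer Pdp1 probes, 2168 bases apart in the transcript, differed by -1.36 to -0.78 in whole muscle and by -1.46 to -1.30 in Het polysomes. They differed by 0.34 on the polysome and 2.42 on the monosome array of WT mouse 2, and by -2.12 to -0.78 on every other array. Each of these Pdp1 probes was well above background on only 1 of the 2 WT monosome arrays, so the 2.42 is imprecise. The Pdk2 probes, 311 bases apart on the genome, differed by -3.30 to -2.05 throughout, with the WT mouse 2 monosome array at the upper end.

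**Figure D5:**
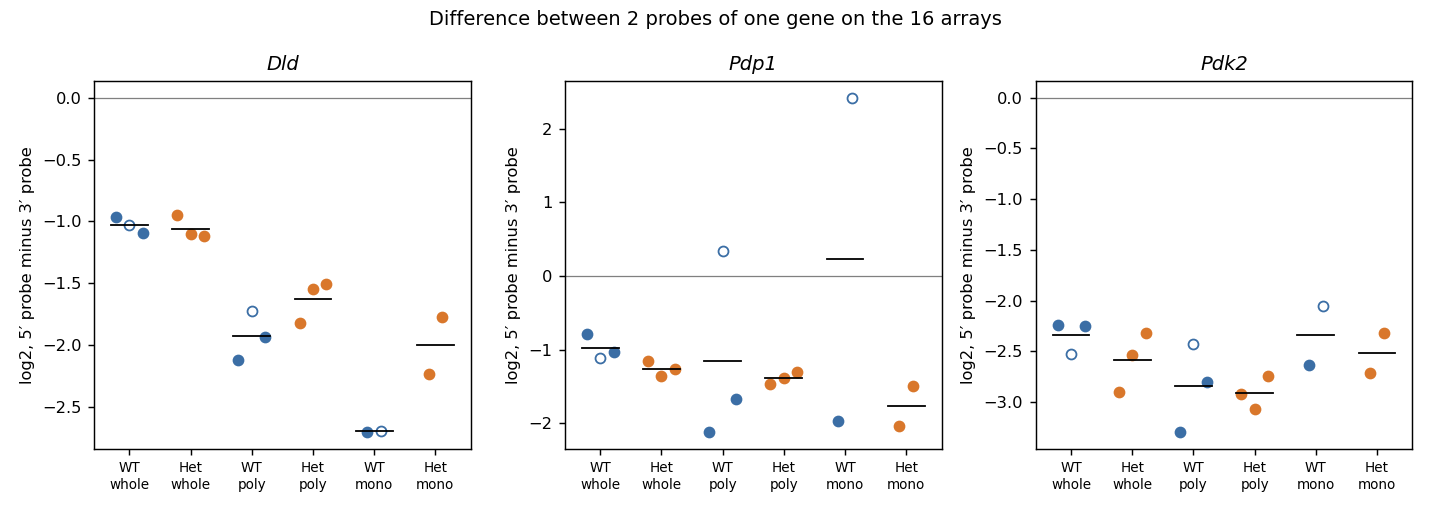
Log2 signal of the upstream minus the downstream probe (y axis) of Dld, Pdp1 and Pdk2 on the 16 arrays of the 6 groups (x axis), with group means as lines and WT mouse 2 open. For Dld the whole-muscle arrays lie between -1.12 and -0.95 and the other 10 below them, and for Pdp1 the only 2 values above 0 are arrays of WT mouse 2.

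Dlat and Pdhx, partners in the core of the complex, were the most alike pair of members. Over the 16 arrays, which share mice and fall into 6 groups, their Pearson's r was 0.99, and 0.98 over the 13 arrays without WT mouse 2. Pdk2 had r between -0.48 and -0.06 with the other 8, a range that became -0.15 to 0.74 without that mouse, with 6 of the 8 then above 0. Of the 9153 probes that were detected on all 16 arrays, those most like Pdha1 and carrying a gene symbol were Rac1 (r = 0.98), Chtop (0.98) and Arf1 (0.97), which had 0.97, 0.94 and 0.93 without WT mouse 2. Those most like Pdk4 were Degs1 (0.96), Ywhah (0.95), Nap1l1 (0.95) and Dnajb11 (0.94), with 0.82, 0.87, 0.77 and 0.86.

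The wider pathway was followed through lists of related genes, each gene by its brightest probe. The closest relatives are the other 2-oxo acid dehydrogenases, which share Dld as their E3 and have the same layout. Of 8 listed, 7 were tested, and 6 had a higher loading ratio in Het mice, with a median difference of 0.47. The median was 0.32, with 5 higher, without WT mouse 2. Dbt, the E2 of branched-chain keto acid dehydrogenase, was highest at 2.05 (1.096 without that mouse) and past 1 without overlap, and Ppm1k, the phosphatase of that complex, was lowest at -0.41. Between polysomes and monosomes 4 of the 7 rose, beside 16.9% of all probes, and between polysomes and whole muscle Ogdh, the E1 of 2-oxoglutarate dehydrogenase, rose by 1.12 (adjusted p = 0.0051).

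Genes that supply pyruvate or use it otherwise gave a smaller loading difference, with a median of 0.11 over 9 tested of 10, and 0.11 again without WT mouse 2. Pcx, which carboxylates pyruvate, was highest at 0.68 and Mpc2, a subunit of the mitochondrial pyruvate carrier, lowest at -0.32. Over both genotypes 3 of the 9 rose in polysomes against whole muscle, beside 13.1% of all probes, Ldhb by 1.15, the lactate exporter Slc16a3 by 1.105 and the alanine aminotransferase Gpt by 0.56. Against monosomes 5 of the 9 rose and none fell, beside 16.9% and 9.07% of all probes.

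Lipoate attachment, which equips Dlat and Pdhx with their lipoyl arms, had a median loading difference of 0.06 over 7 genes (-0.12 without WT mouse 2), from -0.54 for Glrx5 to 0.39 for Bola3, both iron-sulphur cluster factors. Against whole muscle 2 of the 7 rose in polysomes and 1 fell, beside 13.1% and 11.6% of all probes, and against monosomes 3 rose and 1 fell, beside 16.9% and 9.07%. Bola3 fell in polysomes by 2.35 against whole muscle (adjusted p = 0.00068) and by 1.98 against monosomes, while Lias, lipoate synthase, rose by 0.83 and 0.78. Iscu rose by 0.55 against whole muscle, and Nfu1 by 1.18 and Lipt2 by 1.37 against monosomes. The remaining PDH regulators, all 3 tested, lay at 0.41 for Pdpr, the phosphatase regulator, 0.26 for the deacetylase Sirt3 and -0.48 for the second phosphatase Pdp2, and at 0.59, 0.33 and -0.56 without WT mouse 2. The 6 tested regulators of Pdk4 transcription had a median of -0.10 (0.03 without WT mouse 2), from -0.69 for Foxo1 to 0.27 for Ppargc1a. These 2 also rose in polysomes against whole muscle, by 0.64 and 0.58, while none of the 6 passed against monosomes. In monosomes no gene of these 5 lists passed between genotypes. None passed 1 without overlap in the loading ratio other than Dbt, beside the 6.94% and 6.81% of all probes given above.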

How the data were processed

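Each RNA was labelled with Cy3 and hybridised to a 1-colour Agilent array. Per the file headers, the deposited processed signal is an intensity that Agilent Feature Extraction 11.0.1.1 background-subtracted and detrended within the array, with spots near background at a floor value. The authors' value table holds log2 values that were quantile-normalised and rank as the raw median signal, with column medians of 5.68 to 5.70, and served as an alternative. Probe positions are on mm9.

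Processed intensities were log2 transformed, spots marked as non-uniform or population outliers were removed, and spots of one probe were averaged and quantile-normalised over 16 arrays. No spot was saturated, and 63 probes with a missing value were left out. Probes were tested if all arrays of some group had them well above background. Limma 3.58.1 in R 4.3.3 fitted the 6 groups, and the 6 within-mouse ratios of polysome to whole muscle, with Benjamini-Hochberg adjustment over 20244 probes. Mice were paired by number, since per the series design all RNA kinds came from every animal. Polysome and whole-muscle deviations from the group means of one mouse correlated at r = 0.05 to 0.48. The number of arrays limits the precision. Members and lists were chosen with earlier results of these data known. Named were all members, Eif6, the highest and lowest loading difference of each list, and the genes most like Pdha1 and Pdk4, and some further list genes that passed were named after their values were seen. The fits were tested on simulated data. Probes were matched to RefSeq symbols by accession for 14 of 17.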

Additional observations from a re-analysis of the deposited data

Results flagged for a closer look

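The polysome to whole-muscle log2 ratio of Pdha1 was below 0 in each of the 3 WT mice and above 0 in each of the 3 Het mice, and the genotypes differed by 2.49. The 0 of this ratio is set by the normalization between arrays. The genotype difference was not tested, because these ratios had chosen the complex.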

How the results depend on the processing

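Over all tested probes the median loading difference was 0.16 in the main setting. That of the 9 genes stayed above 0 in every alternative run, but was below 0.16 within slide 2. Leaving out a mouse at a time, it ran from 0.28 without WT mouse 2 to 1.13, the polysome median from 0.52 to 1.26 and the whole-muscle median from -0.015 to 0.24. With array brightness as a term the polysome median was 0.41 and the whole-muscle median 1.05, and within slide 2 the whole-muscle median was 0.31. Monosome calls between genotypes went from 0 to 11 within slide 2, where 1 WT array (mouse 2) stood against 1 Het array (mouse 3) and the spread came from the other groups, and ran from 0 to 14 when a mouse was left out. Polysome against whole-muscle calls, 3 in the main setting, were 5 with normexp background correction, 5 in the authors' table, 1 with brightness and 0 within slide 1 and within slide 2, and ran from 2 to 5 when a mouse was left out. Polysome against monosome calls, 9 of 14 probes, were 5 of 17 (4 higher) without a filter on dim probes, 3 of 6 with probes above background on all 16 arrays, 1 with brightness, 0 within slide 1 and from 1 to 12 when a mouse was left out. Monosome against whole-muscle calls, 10 of 14, were 4 of 17, 3 of 6, 4 and 0 in the same settings and from 2 to 14. The replicate block, with the mouse as a term, gave 7 and 8 calls for the monosome comparisons, and without the block 2 polysome against whole-muscle probes passed; the block changed no count by over 1.5 times. Het and WT mice are not paired with each other. Depth is limited by signal over background, above all on the WT mouse 2 monosome array.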
